A study of Danio rerio with 3 samples.

Results

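Radial glia of the adult zebrafish telencephalon that carried UMIs of both *ascl1a* and *ccnd1* were compared with radial glia that carried neither, in fish given an inhibitor of Notch signaling. Of 14928 cells with at least 200 genes, at least 1000 UMIs, and at most 10% mitochondrial UMIs, 2153 passed the radial glia gate, which asked for at least 1 UMI each of *slc1a2b* and *fabp7a* and none of *rrm2*, *pclaf*, *ube2c*, *cdk1*, and *elavl3*. Of these, 1079 were double-positive (419, 343, and 317 in replicates 1, 2, and 3) and 667 were double-negative (364, 158, and 145), whereas 204 had *ascl1a* only and 203 had *ccnd1* only. The cells were thus chosen by their own UMIs of these genes, which are left out of every test. A UMI (unique molecular identifier) counts 1 captured RNA molecule.

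All cells came from 12-week-old Tg(Sox2:gfp) fish, whose GFP marks neural stem cells and progenitors, and all fish had received the γ-secretase inhibitor LY. The study's methods give 24 hours of treatment and the deposited design text gives 48. Each of the 3 replicates was a separate sorting day with 20 fish and 1 library, in which sorted GFP-positive cells were mixed with an equal number of GFP-negative cells. Untreated and vehicle-treated cells were not analysed here, so no value below is an effect of the inhibitor, and the spread between replicates holds fish, sorting day, and library together.

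Notch signaling keeps adult radial glia, the neural stem cells of the fish brain, in quiescence. A Delta ligand on 1 cell activates a Notch receptor on its neighbor, γ-secretase releases the receptor's intracellular domain, and this domain switches on *her* and *hey* genes, whose products repress proneural genes. *ascl1a* is such a proneural gene, and *ccnd1* encodes cyclin D1, which drives cells through G1. The comparison asks which other genes differed between cells in which both were detected and cells in which neither was detected.

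Both sides held cells with UMIs of other cell types' genes, and those of some types were more frequent on the double-negative side. At least 2 of 9 genes of oligodendrocyte precursor cells (OPCs) had a UMI in 62.6%, 41.1%, and 49.7% of double-negative cells, against 10.5%, 2.92%, and 3.15% of double-positive cells. The summed level of these OPC genes ranged from 3481 to 4765 CPM (UMIs per 1000000 of the summed cells) in the double-negative sums and from 191 to 371 in the double-positive sums. *aplnra*, an apelin receptor gene, gave 2739 of the OPC UMIs in double-negative cells, and the lineage regulators *olig2* and *sox10* gave 750 and 288, whereas *cspg4* and *gpr17* were at 12 and 5 and *pdgfra* had fewer UMIs there (14) than in double-positive cells (50). At least 3 of 15 neuron genes had a UMI in 46.2% to 59.3% of double-negative and 16.6% to 36.5% of double-positive cells. Genes of mature oligodendrocytes summed to 2248, 692, and 2880 CPM in double-negative and 445, 617, and 581 in double-positive cells. Of 7 tested, 6 were lower in double-positive cells and none higher. Cells with at least 3 of 9 such genes made up 4.67%, 10.1%, and 12.4% of double-negative and 3.82%, 6.71%, and 7.89% of double-positive cells. Macrophage genes summed to 57.5, 108, and 77.9 CPM in double-negative and 39.3, 259, and 270 in double-positive cells. Whether these UMIs came from other cell types, doublets, or free RNA was not tested.

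**Figure D1:**
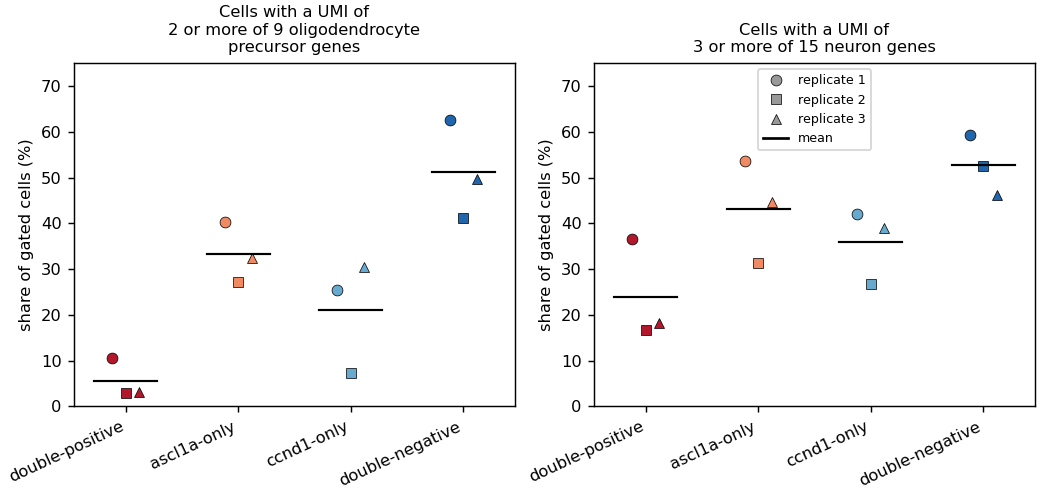
Share of gated cells (%) with UMIs of at least 2 OPC genes (left) and at least 3 neuron genes (right) in the 4 classes of cells. Each point is a replicate and each line the mean of 3; OPC genes were found in 41.1% or more of double-negative cells and in 10.5% or less of double-positive cells.

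The results are therefore given also for marker-restricted cells, which had UMIs of fewer than 2 OPC genes, 3 neuron genes, 3 oligodendrocyte genes, and 2 macrophage genes. This restriction was chosen after the data had been seen. It kept 726 double-positive cells (237, 253, and 236) and 148 double-negative cells (71, 44, and 33), with OPC levels of 81.0 to 156 and 94.6 to 220 CPM. In all gated cells, double-negative cells were shallower (medians of 1486, 1796, and 1590 UMIs against 1784, 2005, and 2110), and after restriction they were deeper in replicates 1 and 2 (2062 and 2396 against 1721 and 1936) and shallower in replicate 3 (1765 against 2000). Median mitochondrial shares were 1.98% to 2.68% in double-negative and 1.34% to 1.38% in double-positive cells, and 1.37% to 1.85% and 1.30% to 1.38% after restriction. What part depth and RNA quality have in the differences was not tested beyond fits on thinned cells and on cells of 1000 to 3000 UMIs.

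Globin UMIs, from red blood cells, stood at 13.3, 8316, and 5394 CPM in the 3 restricted double-negative sums and at 138, 2166.35, and 1921 in the double-positive sums. The globin gene *hbba1* changed direction between settings, and no reading is made of it. No pair of libraries shared more than 71 barcodes, and each pair shared 1 among the radial glia. The automatic doublet call marked 2, 0, and 0 cells and had thus not worked, so the cells with the highest doublet scores were left out in an alternative fit.

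The double-positive class took 51.9% ± 8.48 (SD, n = 3 replicates) of gated cells and the double-negative class 29.6% ± 6.20, with 9.78% ± 2.73 for *ascl1a* only and 8.65% ± 3.53 for *ccnd1* only. When each cell was thinned at random to 1000 UMIs, the double-positive share was 39.4% ± 5.2 and the double-negative share 36.4% ± 5.84. Among marker-restricted cells the shares at full depth were 68.6% ± 7.98 and 13.6% ± 3.82. On the double-positive side 323 of 1079 cells (29.9%) had exactly 1 UMI of at least 1 of the genes, of which 47 had exactly 1 of each, and the medians were 3 UMIs of *ascl1a* and 4 of *ccnd1*. Among the single-positive cells, 121 of 204 had exactly 1 *ascl1a* UMI and 96 of 203 exactly 1 *ccnd1* UMI. In macrophages and oligodendrocytes of the same libraries, 11 of 675 cells were double-positive (1.63%, exact Clopper-Pearson 95% interval 0.816% to 2.90%, counting error only), at a median of 1891 UMIs. These background cells had at least 3 UMIs and 2 genes of either marker list and no UMI of *slc1a2b* or *fabp7a*. That last condition leaves out cells with free RNA of these radial glia genes, so the background may be too low.

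For the tests, UMIs were summed per replicate and side and fitted with edgeR with the replicate as a block, and a gene was called at a Benjamini-Hochberg adjusted p under 0.05. Across all gated cells, 1343 of 6970 tested genes were higher in double-positive cells (19.3%) and 1634 were lower (23.4%). In marker-restricted cells 544 of 3831 were higher (14.2%) and 529 lower (13.8%). These shares are the background for each gene group below. Among 3829 genes tested in both, 485 were higher in both comparisons, which is 47.4% of the genes higher in all gated cells and 89.2% of those higher in restricted cells. For lower genes, 320 were shared, or 39.5% and 60.7%. A gene that is low on 1 side could pass the filter on low counts through the other side alone, above all in the small restricted double-negative sums, so counts and medians over the tested genes of a list are descriptions that the filter sets in part. The lists were also chosen with earlier results of these data known, so such counts are no independent support. The median log2 difference over all tested genes was 0.005 and 0.016. Log2 differences below are double-positive minus double-negative, with 1 SE, and levels are CPM of the summed cells without the 9 gating genes. Fewer cells expressing a gene and fewer molecules per cell cannot be told apart in a sum. Sides are called apart, or not overlapping, when every sum of 1 side lies above every sum of the other. The share of all tested genes with sides apart is not given, so this describes each named gene only.

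Delta genes were higher in double-positive cells. *dla*, a Delta ligand gene, stood at 2107, 1274, and 1220 CPM in double-positive cells of replicates 1, 2, and 3 and at 85.6, 62.0, and 64.7 in double-negative cells. In marker-restricted cells the levels were 2163, 1347, and 1232 against 177, 133, and 129. The sides did not overlap in either set, and the log2 difference was 4.36 ± 0.23 in all gated cells (edgeR, adjusted p = 4.7e-41) and 3.45 ± 0.26 in restricted cells (adjusted p = 2.22e-18). *dld*, a further Delta gene, was at 154, 144, and 146 against 6.82, 0, and 32.2 in restricted cells, a log2 difference of 3.93 ± 0.53. The *dld* value rests on few molecules in double-negative cells, with none in replicate 2, so its size is uncertain. *dlc* had 97 UMIs in restricted double-positive cells and none in double-negative cells, which puts it at least 6.97-fold higher when 3 UMIs over the group are taken as the floor.

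Among receptors and modifiers, *lfng*, which encodes a glycosyltransferase that alters how Notch responds to its ligands, was at 733, 1007, and 1026 against 177, 276, and 129 in restricted cells (log2 difference 2.19 ± 0.24). *notch1b* rose by 3.19 ± 0.63, from 3 UMIs in all restricted double-negative cells. *notch1a* did not pass in all gated cells (0.45 ± 0.22) and passed in restricted cells (1.24 ± 0.43), but in only 4 of 8 alternatives there, and not without replicate 1 (0.88). *notch3*, a receptor known for keeping radial glia quiescent, was higher in all gated cells (0.86 ± 0.18), but in restricted cells its sides overlapped and the difference was -0.18 ± 0.23. Of the list of Notch ligands and receptors, 8 of 9 tested genes were higher and none lower in all gated cells, and 6 of 7 were higher and none lower in restricted cells, out of 17 genes listed. Of these 7, 4 had fewer than 20 UMIs in restricted double-negative cells, so the filter on low counts sets this count in part.

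The Notch effectors split. *her4.1*, an Hes5-type target of Notch, was at 83.8, 67.6, and 66.2 CPM in restricted double-positive cells and at 757, 774, and 564 in double-negative cells. *her6*, an Hes1-type gene, was at 123, 143, and 99.3 against 491, 516, and 532. *her9*, of the same type, was at 11.6, 14.6, and 5.84 against 68.2, 196, and 96.7. All were lower in every double-positive sum than in any double-negative one. The log2 differences were -3.25 ± 0.23 for *her4.1* (edgeR, adjusted p = 3.13e-20), -2.04 ± 0.22 for *her6* (adjusted p = 4.83e-12), and -3.41 ± 0.48 for *her9* (adjusted p = 1.87e-08). Before restriction they were -2.58 ± 0.19, -1.14 ± 0.18, and -2.34 ± 0.33. The *her9* values rested on few molecules, with fewer than 20 UMIs in restricted double-positive cells.

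*her4.2*, a neighbor of *her4.1* with near-identical sequence, did not behave in this way. Its levels in restricted cells were 354, 581, and 545 in double-positive and 587, 578, and 435 in double-negative cells, with overlapping sides and a log2 difference of -0.16 ± 0.21. In all gated cells it passed the test in the other direction (0.47 ± 0.18, lost without replicate 1 at 0.40 or 3 at 0.33), and among cells with a *timp4.3* UMI it was lower in double-positive cells (-0.77). *her15.1*, a further Hes5-type gene, was higher in all gated cells (1.25 ± 0.22), whereas in restricted cells the difference was 0.56 ± 0.30 with overlapping sides. Reads of the *her4* copies may be split between them by the counting, so values of single copies are uncertain. Of 11 tested effectors 4 were higher and 4 lower in all gated cells, and of 8 in restricted cells none were higher and 3 were lower. The fits on thinned cells had 5 of 7 higher and 2 lower in all gated cells, and 1 of 6 higher and 2 lower in restricted cells. The directions of *her4.1*, *her6*, and *her9* were the same with library totals or with DESeq2-type size factors.

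**Figure D2:**
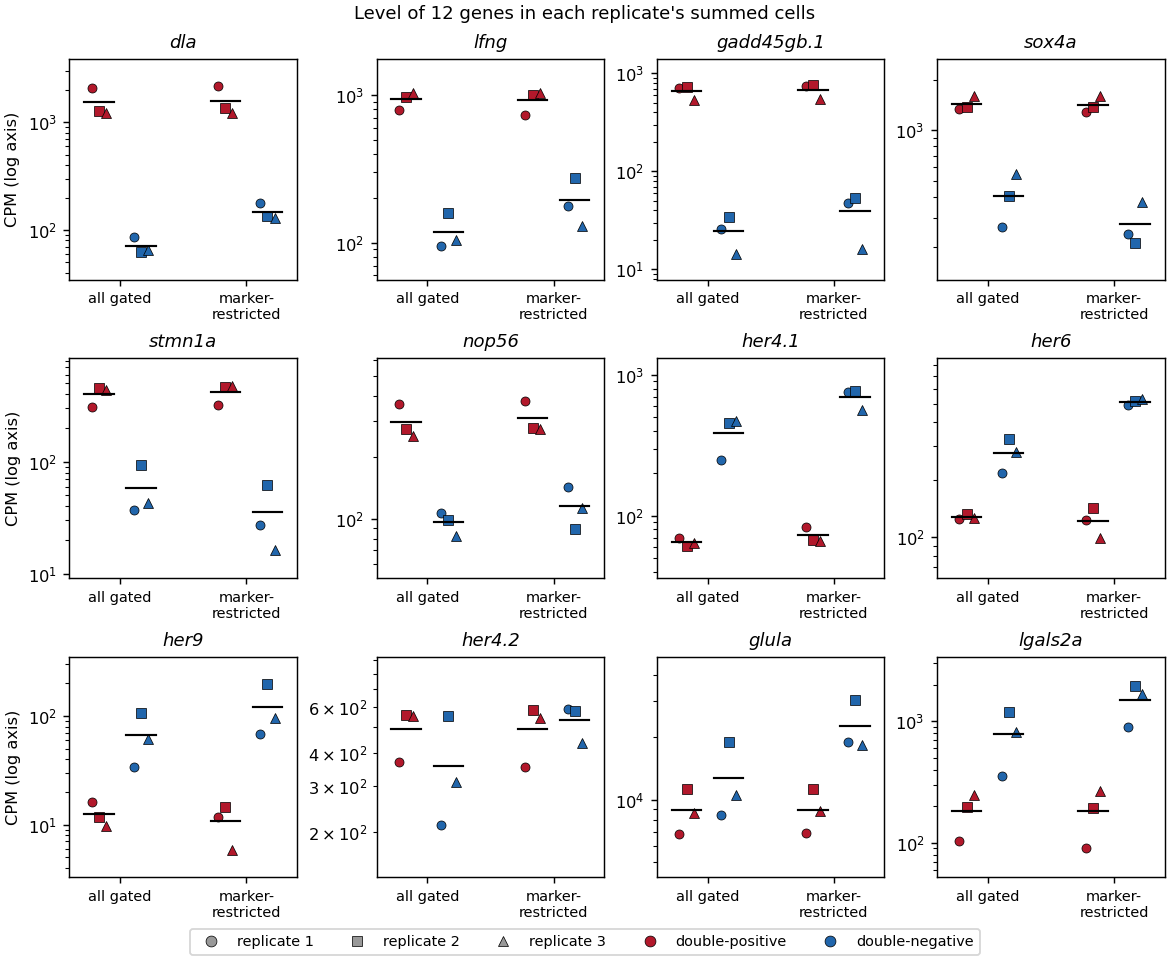
CPM (log axis) of 12 genes in the summed double-positive (red) and double-negative (blue) cells of each replicate, for all gated and for marker-restricted cells; lines are means of 3 replicates. In marker-restricted cells the sides are apart for every gene shown except *her4.2*. The genes were picked for display, so this is no share of all tested genes.

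Genes of neuronal commitment were higher in double-positive cells. *gadd45gb.1*, which marks cells leaving the stem cell state, was at 736, 766, and 549 CPM in restricted double-positive cells and at 47.7, 53.4, and 16.1 in double-negative cells (log2 difference 4.04 ± 0.32, and 4.65 ± 0.25 in all gated cells). *sox4a*, a SoxC factor of neuronal differentiation, was at 1285, 1367, and 1596 against 239, 214, and 371 (2.42 ± 0.24). *stmn1a*, a stathmin that regulates microtubules, was at 324, 468, and 475 against 27.3, 62.3, and 16.1 (3.45 ± 0.34). None of these overlapped between sides. The *gadd45gb.1* and *stmn1a* values rest on few molecules in double-negative cells, so their sizes are uncertain.

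The other SoxC genes followed, with 1.97 ± 0.27 for *sox11a* and 2.25 ± 0.25 for *sox11b*. *eomesa*, a T-box factor of glutamatergic progenitors, rose by 2.79 ± 0.50 in restricted cells and by 0.75 ± 0.22 in all gated cells, where the call was lost without replicate 1 (0.37). *hes6*, which in mouse opposes Hes1, rose by 1.78 ± 0.32, and *ascl1b*, the paralog of a gating gene, by 1.17 ± 0.33, a call lost without replicate 2 (0.98). Before restriction 12 of 21 tested genes of this list were higher and 5 lower, and the lower ones were *neurod1*, *neurod2*, *neurod6a*, *tubb5*, and *tuba1c*, which are also made by neurons. After restriction 10 of 16 were higher and none lower, with a median of 1.29. Of these 16, 5 had fewer than 20 UMIs in restricted double-negative cells, so the filter on low counts sets this count in part. The restriction itself removes cells with neuron genes.

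Cell cycle genes of G1 and S were higher although cells with UMIs of 4 S and G2/M genes had been gated out. *mcm2*, a subunit of the replicative helicase, was at 228, 298, and 274 CPM in restricted double-positive cells and at 34.1, 26.7, and 16.1 in double-negative cells (log2 difference 3.23 ± 0.37, and 2.68 ± 0.23 in all gated cells). *pcna*, the sliding clamp of DNA polymerase, was at 270, 367, and 350 against 40.9, 62.3, and 48.3 (2.69 ± 0.32). The sides were apart for both genes. *hells*, a chromatin remodeler of replicating cells, rose by 3.53 ± 0.37 and *cdk2*, a G1/S kinase, by 2.43 ± 0.69. Of 30 listed genes 24 were tested in all gated cells, with 22 higher and none lower, and 16 in restricted cells, all of them higher. Each of these 16 had fewer than 20 UMIs in restricted double-negative cells and entered the test through the double-positive sums, so that count is set in part by the filter. No gene of the G2/M list had enough UMIs to be tested, which the gate fixes in part. The cyclin D gene *ccnd2a* did not pass (-0.11 in restricted cells).

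Genes of ribosome production were also higher. Ribosomal protein genes made up 15.22% ± 2.63 (SD, n = 3) of the UMIs of double-positive sums and 4.52% ± 0.694 of double-negative sums, and 15.8% ± 3.18 and 6.17% ± 0.734 in restricted cells. Of 83 tested ribosomal protein genes, a list added after the data had been seen, 82 were higher in all gated cells and 80 in restricted cells, with none lower. *npm1a*, a nucleolar chaperone, was at 277, 271, and 228 against 40.9, 17.8, and 48.3 CPM in restricted cells (2.94 ± 0.36). *mycn*, a driver of ribosome synthesis, was at 310, 252, and 255 against 47.7, 53.4, and 96.7 (2.2 ± 0.32). *fbl*, the methyltransferase of ribosomal RNA, rose by 2.30 ± 0.34 and *ncl*, nucleolin, by 0.81 ± 0.22. In the ribosome biogenesis list 24 of 26 tested genes were higher in all gated and 19 of 22 in restricted cells, with none lower. Of these 22, 17 had fewer than 20 UMIs in restricted double-negative cells, so the filter on low counts sets that count in part.

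Genes of high mobility group and other chromatin proteins had 12 of 18 higher and none lower in all gated cells and 10 of 17 and none in restricted cells. *hmgb2b* rose by 1.43 ± 0.22 and *hmga1a* by 1.28 ± 0.26 in restricted cells. Immediate early genes, which respond to stimulation and to tissue dissociation, were mixed in all gated cells (8 higher and 7 lower of 19), and in restricted cells 5 of 14 were higher, among them *junba* (1.26 ± 0.25, lost without replicate 2 at 0.79) and *dusp1* (2.81 ± 0.64), and 1 was lower.

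**Figure D3:**
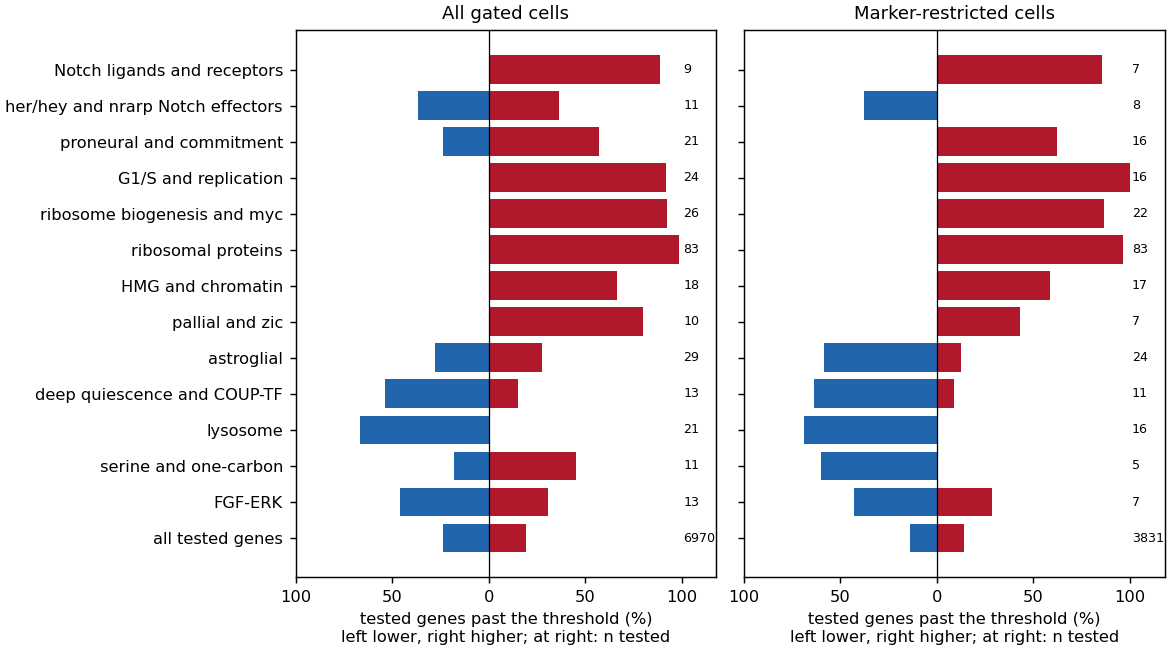
Share (%) of the tested genes of each list past an adjusted p of 0.05, higher (red, right) or lower (blue, left) in double-positive cells, with the number tested at the right of each row. The 16 G1/S genes tested in marker-restricted cells, of 30 listed, were higher there, and 14 of 24 astroglial genes were lower there against 8 of 29 in all gated cells.

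Astroglial genes differed between all gated and marker-restricted cells. *glula*, glutamine synthetase, was at 6804, 11254, and 8607 CPM in all double-positive cells and at 8424, 19060, and 10496 in all double-negative cells, with overlapping sides (log2 difference -0.51 ± 0.24, adjusted p = 0.0798, edgeR). In restricted double-negative cells it was at 19003, 30268, and 18435, above every double-positive sum (-1.31 ± 0.28, adjusted p = 0.000111), a call lost without replicate 2 (-1.23). *mfge8a*, a secreted glycoprotein gene, was at 1183, 2179, and 1828 against 4188, 5340, and 3819 in restricted cells (-1.38 ± 0.22). *slc4a4a*, a bicarbonate cotransporter, was at 468, 497, and 543 against 1535, 1023, and 983 (-1.21 ± 0.21). Neither had passed in all gated cells.

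The direction turned for *cx43*, the connexin of astroglial gap junctions, from 0.36 ± 0.23 (not past the threshold) in all gated cells to -0.73 ± 0.27 in restricted cells. There it passed, but in only 5 of 11 alternatives (-0.94 to -0.38), and not without replicate 1 (-0.38), 2 (-0.91), or 3 (-0.79). *gfap*, the glial filament gene, was higher in all gated cells (0.64 ± 0.21), though not past the threshold without replicate 1 (0.47) or 3 (0.48), and did not pass in restricted cells (-0.60 ± 0.26, adjusted p = 0.0719, edgeR), where its sides were apart. *aqp1a.1*, a water channel gene, had the largest fitted fall of the restricted comparison among the genes named by rule, with 11.6, 9.14, and 3.89 against 184, 125, and 145 CPM (-4.10 ± 0.45). The *aqp1a.1* value rests on few molecules in double-positive cells, so its size is uncertain. *slc6a9*, a glycine transporter gene, fell by 2.44 on the log2 scale, *ckbb*, a creatine kinase gene, by 1.61, and *sparc*, a matrix protein gene, by 1.49.

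Some glial genes went the other way or did not pass. *igfbp2a*, a growth factor binding protein gene and 1 of the study's markers of astroglia-like stem cells, was at 168, 327, and 327 against 68.2, 169, and 0 in restricted cells. It was higher in double-positive cells within each replicate and passed the test (1.58 ± 0.31), and its fitted value ranged from 0.65 to 2.26 over 11 alternatives, of which 9 passed. *timp4.3*, a protease inhibitor gene and the second such marker, was at 1383, 905, and 1063 against 1467, 587, and 806 and did not pass (0.30 ± 0.21). Before restriction *timp4.3* had passed (1.5 ± 0.18). *vim*, vimentin, rose by 0.79 ± 0.22 and *nfia*, a gliogenic factor, by 1.36 ± 0.31 in restricted cells, the latter not past the threshold without replicate 1 (1.04). In all, 8 of 29 tested astroglial genes were higher and 8 lower in all gated cells, and 3 of 24 were higher and 14 lower in restricted cells (medians -0.14 and -0.80).

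Several genes of a list built around *pnp6*, the study's marker of its most deeply quiescent radial glia, were lower in double-positive cells. This list, like the others, was chosen with earlier results of these data known. *lgals2a*, a galectin gene, was at 90.8, 194, and 269 CPM in restricted double-positive cells and at 894, 1940, and 1676 in double-negative cells (log2 difference -3.06 ± 0.21, and -2.09 ± 0.18 in all gated cells). *pnp6*, a purine nucleoside phosphorylase gene, was at 72.2, 143, and 103 against 382, 926, and 161 (-2.16 ± 0.25). *cahz*, a carbonic anhydrase gene, fell by 2.2 on the log2 scale, *vamp5* by 2.70, *cspg5b* by 2.05, and *lgals1l1*, a further galectin gene, by 4.03. The sides were apart for all of them in restricted cells.

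The COUP-TF genes, which encode nuclear receptors, differed from each other. *nr2f1b* was at 6.99, 20.1, and 7.79 CPM in restricted double-positive cells and at 68.2, 151, and 96.7 in double-negative cells (-3.10 ± 0.49, adjusted p = 3.44e-07, edgeR). *nr2f1a* was at 317, 428, and 329 against 150, 178, and 226, the opposite direction (1.02 ± 0.24), a call lost without replicate 2 (0.87). *nr2f2* did not pass in either set (-0.01 and -0.12). *nr2f1b* rested on few molecules, 18 UMIs in restricted double-positive and 33 in double-negative cells, and its value stayed between -3.35 and -2.74 in the 9 alternatives that could test it. The list of deep quiescence and COUP-TF genes had 7 of 13 lower and 2 higher in all gated cells and 7 of 11 lower and 1 higher in restricted cells.

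**Figure D4:**
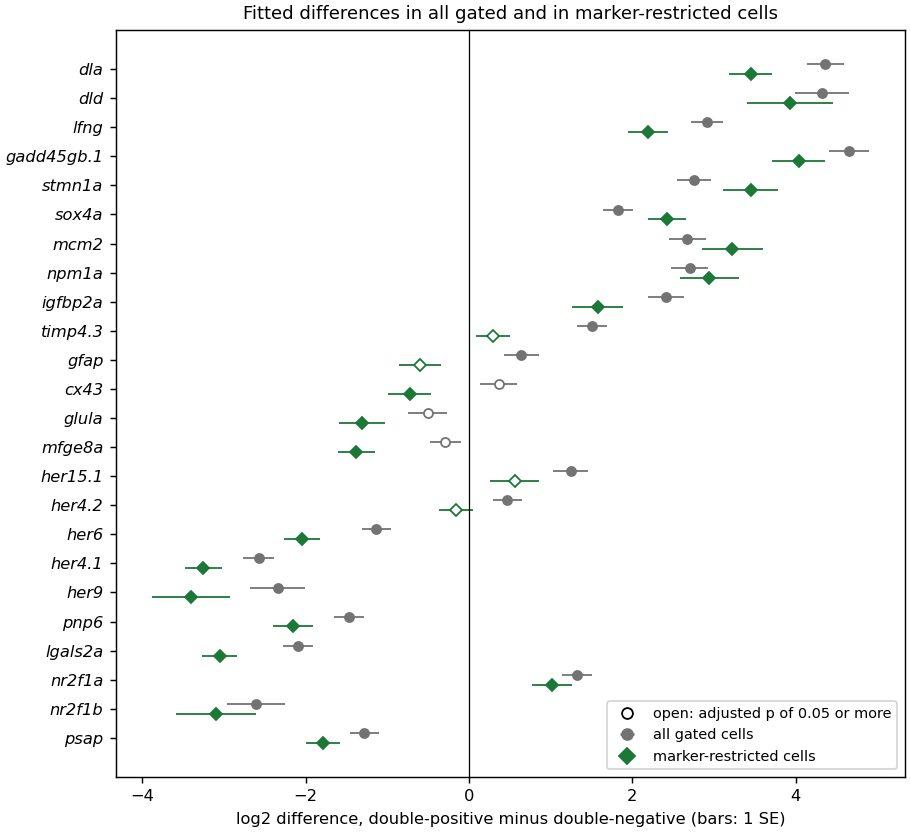
Fitted log2 difference (double-positive minus double-negative, bars 1 SE) of 24 genes in all gated cells (grey circles) and marker-restricted cells (green diamonds); open symbols did not pass an adjusted p of 0.05. *gfap*, *cx43*, and *her4.2* lie on opposite sides of 0 in the 2 sets, and *nr2f1a* and *nr2f1b* lie on opposite sides of 0 in both.

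Lysosomal genes were lower in double-positive cells. *psap*, which encodes an activator of lysosomal lipid breakdown, was at 452, 782, and 738 CPM in restricted double-positive cells and at 2053, 2296, and 2353 in double-negative cells (-1.78 ± 0.21). *ctsd*, the protease cathepsin D, fell by 1.1 and *cd63*, a tetraspanin of late endosomes, by 0.91 on the log2 scale. In the list, 14 of 21 tested genes were lower in all gated cells and 11 of 16 in restricted cells, with none higher in either.

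Enzymes of serine synthesis were lower in restricted cells. *phgdh*, the first enzyme of the pathway, was at 105, 106, and 134 against 321, 374, and 338 CPM (-1.59 ± 0.23). *psat1* and *psph*, the next steps, had differences of -1.17 ± 0.22 and -2.54 ± 0.33. Over the whole serine and one-carbon list, 5 of 11 tested genes were higher in all gated cells, namely *shmt1*, *dhfr*, *gldc*, *amt*, and *ahcy*, and 2 were lower, *phgdh* and *psph*. Of the cholesterol synthesis list, 9 of 15 were higher and 1 lower in all gated cells and 3 of 11 higher and none lower in restricted cells, these being *insig1* (1.78 ± 0.31), *srebf2*, and *lbr* (2.28 ± 0.72). Without replicate 1 or 2 *srebf2* (1.04 and 0.81) and *lbr* (2.08 and 1.69) did not pass. Of the 11 genes tested in restricted cells, 7 had fewer than 20 UMIs in double-negative cells. The filter on low counts thus sets that count in part. In the thinned fits 3 of 9 tested cholesterol genes were higher in all gated cells and 2 of 4 in restricted cells, with none lower.

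Some FGF receptor genes were higher and some feedback genes of FGF signaling lower in restricted double-positive cells. *fgfr3*, an FGF receptor gene, was at 265, 165, and 185 CPM in restricted double-positive cells and at 123, 71.2, and 64.5 in double-negative cells (1.22 ± 0.29). *spry2*, a feedback inhibitor gene of receptor signaling, was at 165, 194, and 162 against 498, 392, and 467 (-1.36 ± 0.22). *fgfr4* rose by 2.24 ± 0.74, a call lost without replicate 1 (1.82), and *spry4* fell by 1.71 on the log2 scale, with overlapping sides for *spry4*. Of the list, 4 of 13 were higher and 6 lower in all gated cells, and 2 of 7 higher and 3 lower in restricted cells. Thinning left 3 of 5 tested higher and none lower in all gated cells, and 1 of 4 higher and 2 lower in restricted cells. In the Wnt list the restricted comparison had 3 of 6 higher and 1 lower. *ctnnb1*, β-catenin, passed in opposite directions, at -0.43 ± 0.17 in all gated and 0.91 ± 0.24 in restricted cells, the former lost without replicate 1 (-0.36), 2 (-0.48), or 3 (-0.41).

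Some regional genes, which mark position in the telencephalon, differed as well. *zic2a*, a zinc finger factor gene, was at 69.9, 98.7, and 81.7 CPM in restricted double-positive cells and at 13.6, 8.90, and 0 in double-negative cells (3.11 ± 0.62). The *zic2a* value rests on few molecules in double-negative cells, with none in replicate 3, so its size is uncertain. *gsx2*, which marks the dorsal subpallium, was at 58.2, 62.1, and 132 against 252, 160, and 145, lower in double-positive cells (-1.29 ± 0.28, lost without replicate 1 at -0.72), but in all gated cells it did not pass (0.31 ± 0.21). Of pallial and *zic* genes, 8 of 10 were higher in all gated cells and 3 of 7 in restricted cells, with none lower. Of subpallial genes none were higher and 2 were lower, of 9 and 7 tested, against 23.4% and 13.8% lower over all tested genes. After thinning, 0 of 7 tested in all gated cells passed in either direction. These counts are therefore not read as a difference of subpallial genes as a group. When cells with a subpallial marker UMI were left out of all gated cells, 1056 genes were higher and 1234 lower in double-positive cells. Stem cell Sox genes differed little in restricted cells, where *sox3* alone of 4 tested passed (0.53 ± 0.21), in 3 of 11 alternatives and not without replicate 1 (0.44) or 2 (0.50), and *sox2* was at 0.26. Of the *id* family, *id1* was higher in all gated cells (0.47 ± 0.19, lost without replicate 2 at 0.42 or 3 at 0.43) and no member passed in restricted cells.

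Shares of positive cells, in the classes set at full depth, were read after thinning every cell to 1000 UMIs. The same macrophages and oligodendrocytes served as a measure of free RNA. Since these were picked without *slc1a2b* and *fabp7a* UMIs, that measure may be too low for radial glia genes. *dla* had a UMI in 70.9% ± 7.70 (SD, n = 3) of restricted double-positive cells and 9.09% ± 2.73 of double-negative cells, with 4.72% ± 1.93 in the background cells. Without thinning these were 87.9%, 14.1%, and 8.70%. For *gadd45gb.1* the shares were 40.2% ± 2.59, 5.16% ± 1.94, and 5.33% ± 2.88, and for *stmn1a* 27.8% ± 5.06, 3.97% ± 4.65, and 5.55% ± 1.41. Both double-negative shares stood at or below the background and are not read as expression. For *her4.1* the shares were 5.81% ± 1.01, 24.4% ± 4.48, and 0.23% ± 0.398, and for *her6* 7.71% ± 0.470, 32.9% ± 4.95, and 2.0% ± 1.49. Without thinning, *gadd45gb.1* was found in 57.5%, 5.63%, and 9.38% of these cells, *stmn1a* in 46.1%, 7.72%, and 11.3%, *her4.1* in 8.83%, 31.8%, and 0.879%, and *her6* in 15.6%, 46.8%, and 3.02%.

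*timp4.3* was found after thinning in 46.5% ± 3.61 of restricted double-positive and 38.5% ± 13.0 of double-negative cells, against 3.89% ± 2.07 in background cells (59.0%, 49.4%, and 6.44% without thinning). *nr2f1b* was found in 1.37% ± 0.462 of double-positive and 6.64% ± 0.514 of double-negative cells, against 0.46% ± 0.796 (2.30%, 11.7%, and 0.774% without thinning). The *nr2f1b* shares rest on 10 of 726 and 10 of 148 cells.

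Levels were also laid out by the number of *ascl1a* and *ccnd1* UMIs that a restricted cell kept after thinning, as a description only. With 0, 1, 2, 3 to 4, and 5 or more such UMIs, *dla* had mean levels of 307, 984, 1308, 1524, and 2109 CPM, and *sox4a* of 452, 718, 1255, 1458, and 2021. *her4.1* went the other way, with 451, 157, 79.5, 70.6, and 63.6, of which the main step lay between 0 and 1 UMI. *glula* had 18385, 15264, 8956, 7626, and 6184. *her4.2* had no such course, with 553, 304, 385, 473, and 546. The bins held 219, 128, 133, 260, and 328 cells.

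**Figure D5:**
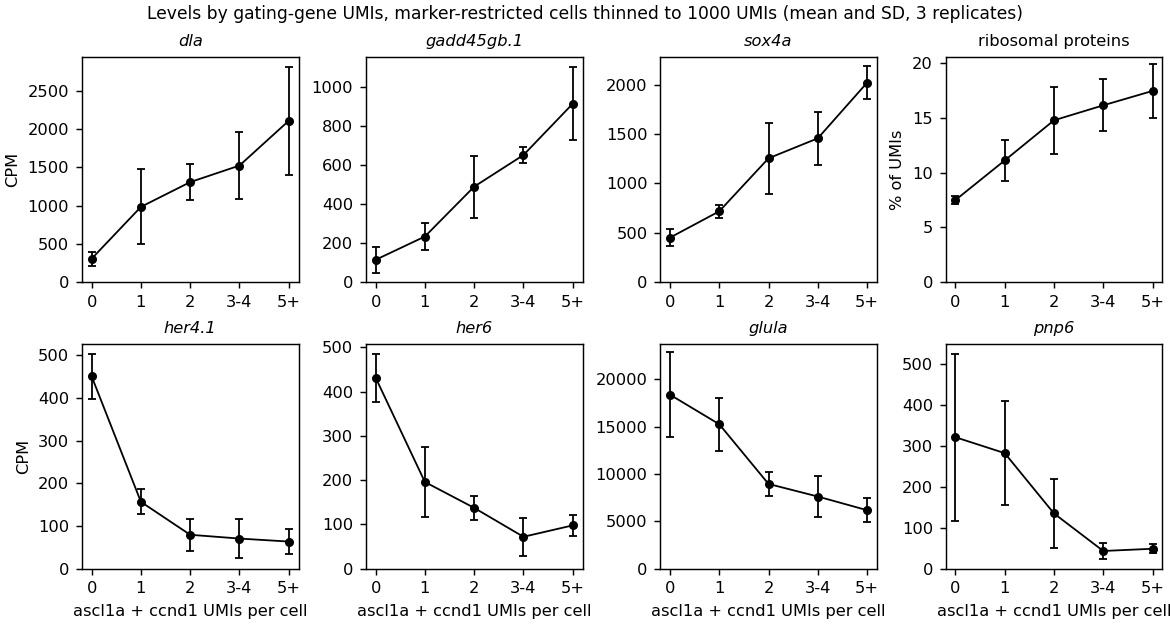
Level of 8 genes or gene groups against the number of *ascl1a* and *ccnd1* UMIs per marker-restricted cell after thinning to 1000 UMIs, as mean and SD of 3 replicates; ribosomal protein genes are in % of UMIs, all others in CPM. *dla*, *gadd45gb.1*, and *sox4a* have their highest mean at 5 or more UMIs, whereas *her4.1*, *her6*, *glula*, and *pnp6* have theirs at 0.

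Cells with *ascl1a* only were compared with cells with *ccnd1* only, which asks whether the genes differ in what accompanies them. In all gated cells 35 of 2098 tested genes were higher in *ascl1a*-only cells (1.67%) and 97 lower (4.62%). In restricted cells, 90 with *ascl1a* only and 104 with *ccnd1* only, 57 of 1000 were higher (5.70%) and 85 lower (8.50%). Both counts rest on few cells. In all gated cells edgeR called 0 and 0 genes without replicate 3, where 157 and 190 had an unadjusted p under 0.05, and 6 and 8 without replicate 1. Without the replicate block it called 0 and 0, with 88 and 166 at an unadjusted p under 0.05, whereas DESeq2 called 16 and 62 on all 3 replicates. In restricted cells, without replicate 1, 2, or 3, the counts were 16 and 4, 25 and 36, and 22 and 8.

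*glula* was higher in *ascl1a*-only cells, at 15157, 31333, and 19976 against 7956, 14068, and 12716 CPM in restricted cells (log2 difference, *ascl1a*-only minus *ccnd1*-only, 0.85 ± 0.19). *cahz* was at 527, 917, and 503 against 102, 160, and 237 (2.01 ± 0.31). The sides did not overlap for either gene. The largest fitted rise in restricted cells was that of the globin gene *hbba1* (2.48 ± 0.32), at 14.6, 5032, and 97.8 CPM in *ascl1a*-only and 0, 660.4, and 148 in *ccnd1*-only cells, thus mostly of replicate 2 and in the other direction in replicate 3. Red blood cell RNA moved with the comparison, with globin sums of 28.6, 9586, and 339 CPM against 10.0, 1397, and 233, and its part in the other differences was not tested. The largest other rises by the naming rule, which asks for 1 direction in all pairs, were *CABZ01079281.1*, *TST*, *vamp5*, and *ube2l3b*, at 1.40 to 2.36.

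Some Notch ligand and commitment genes were lower in *ascl1a*-only cells, 2 of 3 tested genes of the former list and 4 of 13 of the latter, with none higher. *gadd45gb.1* was at 205, 167, and 196 against 518, 360, and 325 CPM in restricted cells (-1.16 ± 0.33), with the sides apart. *dla* was at 922, 361, and 489 against 1646, 800, and 887 (-0.98 ± 0.22), and *sox4a* at 410, 723, and 629 against 1270, 640, and 2218 (-1.21 ± 0.22), with overlapping sides for both and, for *sox4a*, the other direction in replicate 2. *nop58*, a nucleolar protein gene, was at 58.5, 13.9, and 83.8 against 224, 220, and 177 (-2.06 ± 0.53). Of ribosomal protein genes, 52 of 80 tested were lower and none higher. Without replicate 1 or 3, only 4 and 8 genes of any kind were lower in restricted cells, so most of these calls were lost. In all gated cells 63 of 82 ribosomal protein genes were lower, and 27 of 81 in the thinned fit. Calls of single genes between single-positive cells in these alternatives are not given. *her4.1* did not pass (0.56 ± 0.36). The other falls by the rule included *h3f3b.1*, *sdc4*, and *cd164*, at -1.58 to -1.30.

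By the naming rule, the genes with the largest fitted rise in all gated cells were *gadd45gb.1*, *dlc*, *dla*, *dld*, *tesca*, *snai3*, *cdca7a*, *sb:cb81*, *chtf8*, and *cdca7b*, at 3.09 to 4.65. Of these *tesca*, *dlc*, and *chtf8* had no UMI in restricted double-negative cells, and *tesca* and *chtf8* were there at least 8.54-fold and 6.25-fold higher by the same floor. In restricted cells the replication genes *mcm7*, *mcm5*, and *mcm6* and the gene *sinhcafl* joined the list. The largest falls in all gated cells were *ccl38.6*, *c1ql3a*, *ccdc80*, *gdf11*, *gfra4b*, *aplnra*, *cacng4a*, *sez6a*, *ccl36.1*, and *sparcl1*, at -6.03 to -4.62. OPC genes moved with them, since *aplnra* is on the OPC list and 6 of 7 tested OPC genes were lower. In restricted cells the falls were instead *aqp1a.1*, *si:busm1-57f23.1*, *lgals1l1*, *sncga*, *cd81b*, *her9*, *her4.1*, *cpn1*, *nr2f1b*, and *ckba*, at -4.10 to -3.06.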

How the data were processed

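Cells were dissociated from the telencephalon, sorted for GFP, and profiled by droplet single-cell RNA sequencing (10x 3′ chemistry) in 3 replicates. The authors mapped reads to GRCz11 and counted UMIs per gene and barcode with Cell Ranger 3.0.1, so the deposited tables hold raw UMI counts without normalization. The libraries held 8143, 6205, and 5349 barcodes and 15050320, 13048298, and 12104324 UMIs. The counts resolve genes of low level poorly, and intervals and floors cover counting error only.

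Cells were filtered, gated, and classed as stated in the report. A further 743 identifiers shared their symbol with another. For tested and named genes a symbol here means the identifier with the most UMIs. The gate, the classes, and the marker lists per cell used all identifiers of a symbol. UMIs were summed per replicate and class without the 9 gating genes and tested with edgeR 4.0.16 (TMM, filterByExpr, quasi-likelihood test, replicate as a block, p-values adjusted after Benjamini and Hochberg, threshold 0.05). Standard errors are the size of the log2 difference divided by the square root of F. Both sides of a replicate were drawn from 1 library and 1 set of fish, which pairs them, and across genes their deviations from the side means correlated at 0.492, 0.349, and 0.133 in all gated and 0.379, 0.256, and 0.132 in restricted cells, genes not being independent replicates. The test was checked on simulated data, where it called 68.7% of genes changed 2-fold and 99.0% of those changed 4-fold in all gated cells, and 60.2% and 96.9% in restricted cells. It made 1 and 6 false calls. The changed genes were drawn only from genes with higher summed counts, so these shares do not cover genes with few UMIs, such as *her9* and *nr2f1b* in restricted cells. Far fewer genes were changed (99 and 98 of 6625, and 98 and 97 of 3529) than were called in the data.

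The members and the 27 gene lists, with 482 of 493 genes in the table, were chosen with earlier results of these data known. Genes were named by size, as the 10 largest rises and falls (5 for single-positive cells) past the threshold with 1 direction in all 3 pairs and a mean of at least 30 CPM, by list, or because the study names them. Named beyond this rule, after their values were seen, were further members of the lists. Alternatives were RLE factors, library totals, DESeq2 1.42.0, other filters, thinning, depth limits, other gates, left-out replicates, and the fit without the block. The thinned fits classed cells anew by their thinned UMIs, so the restricted double-negative side held 219 cells there and 148 at full depth. A planned search of promoter sequences was not run. The values of 1 gene that the naming rule selects are not reported here. R 4.3.3, Python 3.11.15, and scanpy 1.11.5 (Scrublet) were used.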

Additional observations from a re-analysis of the deposited data

How the results depend on the processing

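In all gated cells the counts of higher and lower genes were 648 and 982 with DESeq2, 782 and 915 after thinning to 1000 UMIs, 778 and 940 without cells holding a *pcna*, *mcm2*, *mcm5*, *mki67*, or *top2a* UMI, 850 and 976 without cells holding a *neurod1*, *neurod4*, *neurog1*, *insm1a*, or *elavl4* UMI, 427 and 403 in *timp4.3*-positive cells, 621 and 552 with at least 3 UMIs of each radial glia gene and fewer than 2 OPC genes, and 544 and 529 in marker-restricted cells. They ranged from 1015 to 1156 and from 1191 to 1492 without 1 replicate, and were 932 and 1191 with no replicate block. In restricted cells they were 251 and 250 with DESeq2, 325 and 308 after thinning, 314 and 263 without the replication genes, 295 and 250 in *timp4.3*-positive cells, 418 and 335 with at least 3 UMIs, 403 and 353 with no replicate block, 351 to 497 and 314 to 454 without 1 replicate, the lowest being without replicate 2. Between single-positive cells they were 16 and 62 with DESeq2, 0 and 0 with no replicate block, 37 and 38 after thinning, 9 and 11 without the replication genes, 57 and 85 in restricted cells, and 0 to 36 and 0 to 75 without 1 replicate (restricted, 16 to 25 and 4 to 36). Thinning moved the class shares to 39.39% double-positive, 12.45% *ccnd1*-only, and 36.39% double-negative. The cause was not tested for any of these, beyond the smaller number of cells or UMIs in the subsets.

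Of the log2 differences of named and listed genes under each alternative, 3060 counted as unchanged in all gated cells, 202 no longer passed, 54 newly passed, and 55 turned. Unchanged means the same direction and side of the threshold, or a change of direction with neither fit past it. Turned means a change of direction with the main or the alternative fit past the threshold. Within the restricted comparison the numbers were 1366, 103, 12, and 2. Of the 55 turns of the all-gated result, those under the restriction to marker-restricted cells were *gsx2* -1.29, *plp1b* 0.21, *enkur* -0.30, *id1* -0.50, *syt1a* 0.41, *mbpa* 0.79, *sfrp5* -0.28, *her4.2* -0.16, *her4.4* -0.34, *notch3* -0.18, *neurod1* 0.60, *glulb* -0.25, *gfap* -0.60, *s100b* -0.59, *cx43* -0.73, *apoeb* -0.082, *foxg1a* -0.026, *ctnnb1* 0.91, and *elavl4* 1.39. With at least 3 UMIs and fewer than 2 OPC genes they were *plp1b* 0.18, *id1* -0.43, *hbba2* 0.58, *hbba1* 0.93, *snap25a* 0.26, *mpz* 0.10, *mbpa* 0.87, *cd59* 0.14, *sfrp5* -0.036, *her4.2* -0.80, *her4.4* -0.74, *notch3* -0.033, *neurod1* 0.74, *glulb* -0.23, *gfap* -0.48, *ctnnb1* 0.82, and *elavl4* 0.86. In *timp4.3*-positive cells they were *gsx2* -0.81, *plp1b* 0.25, *id1* -0.40, *hbba2* 0.63, *hbba1* 1.61, *snap25a* 0.041, *mbpa* 0.20, *sfrp5* -0.28, *her4.2* -0.77, *her4.4* -0.37, *notch3* -0.10, *neurod1* 0.42, *glulb* -0.16, *gfap* -0.15, *ctnnb1* 0.68, and *elavl4* 0.16. Thinning turned *cd74a* (-0.89) and *apoeb* (-0.69), and cells of 1000 to 3000 UMIs turned *cd74a* (-0.094). Within restricted cells *hbba1* turned in *timp4.3*-positive cells (1.93) and with at least 3 UMIs (1.77). The cause was not tested. Alternatives that restrict the cells by OPC or neuron genes were chosen after seeing the data.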

Other observations

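Markers that the rule did not use gave a further description of the single-positive cells. At least 2 OPC genes had a UMI in a larger share of both single-positive classes than of double-positive cells in every replicate. The shares were 40.2%, 27.1%, and 32.4% of *ascl1a*-only and 25.4%, 7.32%, and 30.6% of *ccnd1*-only cells, as the plot of marker shares shows. Ribosomal protein genes took 6.73% ± 0.598 (SD, n = 3) of the UMIs of *ascl1a*-only sums and 10.3% ± 1.69 of *ccnd1*-only sums, and 8.36% ± 1.41 and 12.5% ± 3.27 in marker-restricted cells, between the values of the double-negative and double-positive sums. The *gfp* transgene, after thinning to 1000 UMIs, had a UMI in 3.04% ± 0.310 of restricted double-positive and 2.17% ± 2.11 of double-negative cells, against 1.32% ± 0.650 in macrophages and oligodendrocytes, and at full depth in 8.29%, 5.16%, and 2.99%. In the list of cilium genes *foxj1b* and *enkur* were higher in all gated cells and none of the 3 tested passed in restricted cells. Of the vascular genes 1 of 3 tested, *rgs5b*, was lower in all gated cells, and of the macrophage genes *cd74a* and *ccl34b.1* were higher there, but *cd74a* turned to -0.89 after thinning and *ccl34b.1* passed in 6 of 11 alternatives.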
